A study of Homo sapiens with 6 samples.

Results

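The 9 genes described here control how iron enters, leaves and is sensed inside a cell: TFRC, STEAP3, SLC11A2, SLC39A14, NCOA4, SLC40A1, ACO1, IREB2 and FBXL5. They were taken by gene name from the 58825 genes of the deposited table, and each name matched 1 gene. The libraries were 3 of untreated HK-2 cells (Control) and 3 of HK-2 cells given OX-LDL at 25 μg/ml over 48 h. HK-2 is an established human line from kidney tubular epithelium. OX-LDL, oxidized low-density lipoprotein, is a damaged form of the particle that carries cholesterol in blood. According to the methods, HK-2 cells were held in low-serum medium before OX-LDL was added. The labels give no time for the untreated cells and do not say whether the 3 libraries of a group came from separate cultures. The p-values therefore set a group difference against the spread between these libraries, which may not be that between separate cultures.

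Most cells take up iron bound to transferrin. The transferrin receptor carries it into endosomes, where a reductase converts it so that a transporter can pass it into the cytosol. Iron is stored in ferritin, is released when ferritin is delivered to lysosomes, and leaves the cell through ferroportin. The iron regulatory proteins bind a hairpin, the iron-responsive element (IRE), in some of these transcripts when iron is scarce. A hairpin in the 3′ untranslated region (UTR) protects the transcript from decay, while a hairpin in the 5′ UTR blocks its translation. Kidney tubules also recover filtered iron from the urine.

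After OX-LDL, the transcripts of both iron regulatory proteins, ACO1 and IREB2, rose, and that of the iron importer SLC11A2 fell. ACO1 was 1.46 times and IREB2 1.31 times its Control level, and SLC11A2 was 0.727 times its Control level, with 3 libraries per group. These 3 of 9 genes had an adjusted p under 0.05 in edgeR's quasi-likelihood test, 2 of them higher and 1 lower, where 15.3% of the 19510 genes tested did (7.91% higher and 7.42% lower). ACO1 alone was called once OX-LDL replicate 1 or 3, or Control replicate 2, was left out. No member reached a fold above 2 or below 0.5 with p under 0.05, the limits used by the study, which 6.36% of the genes tested met. The ferritin heavy chain transcript FTH1, which is not a member, fell to 0.663 times its Control level. RNA came from whole cultures, so fewer cells with a transcript and less of it in each cell cannot be told apart.

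The libraries held 62561347 to 76797607 counts each. Values of exactly 4, 8 or 12 counts occurred 2.13 to 3.26 times as often as the values next to them, so a read pair was taken as about 4 counts. Levels are given as deposited FPKM, that is, fragments per kilobase of gene model scaled for library size. Fold changes were fitted to the counts and are given as OX-LDL relative to Control, with the standard error (SE). Of 13 markers of tubular epithelium, 7 reached 1 FPKM in at least 1 library, among them PAX8, EPCAM and KRT8. LRP2, the megalin receptor of the proximal tubule, had 0 counts in every library. The markers summed to 215 to 241 FPKM in Control and 250 to 277 FPKM in OX-LDL. Erythroid markers summed to at most 0.0483 FPKM, with HBB and EPB42 at 0, endothelial markers to at most 0.122 FPKM and leukocyte markers to at most 0.418 FPKM. Of the 4 fibroblast markers, LUM alone reached 1 FPKM and DCN was at 0 (summed level 8.13 to 13.1 FPKM over both groups).

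The sequence that the iron regulatory proteins read was searched for in the UTRs of protein-coding transcripts (GENCODE release 29, GRCh38), on the transcript's own strand only, as a C, any 5 bases and then the loop letters CAGTGN, with T for the U of RNA. The hairpin was scored by how many of the 5 base pairs next to the loop (upper stem) and of the 5 beyond the bulged C (lower stem) could form, G with T included. The sites below fit this pattern but are not all the sites found. A hairpin that departs from the pattern is missed by the search, and binding to the sites was not tested. Each printed site is 27 bases, 5′ to 3′, with the loop in capitals.

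TFRC site a: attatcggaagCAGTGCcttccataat
TFRC site b: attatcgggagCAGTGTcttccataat
TFRC site c: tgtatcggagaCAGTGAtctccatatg
TFRC site d: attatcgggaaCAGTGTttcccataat
SLC40A1: aacttcagctaCAGTGTtagctaagtt
SLC11A2: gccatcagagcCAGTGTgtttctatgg
FTH1: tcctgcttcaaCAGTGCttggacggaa
FTL: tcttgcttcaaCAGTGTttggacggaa

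The 4 TFRC sites lie in its 3′ UTR on the minus strand, at chr3:196050980-196051006 (a), chr3:196050576-196050602 (b), chr3:196050511-196050537 (c) and chr3:196050464-196050490 (d). In each of them all 5 upper and all 5 lower pairs could form, and 3 of 4 coding transcripts hold them. The SLC40A1 site lies in the 5′ UTR at chr2:189580662-189580688 on the minus strand, with all 5 upper and all 5 lower pairs, and is in 1 of 5 coding transcripts. The FTH1 site (chr11:61967575-61967601, minus strand) and the FTL site (chr19:48965336-48965362, plus strand) lie in 5′ UTRs and have 5 upper and 4 lower pairs. A site with 5 upper and at least 4 lower pairs was found in 18 of 19684 protein-coding genes (0.0914%). Of the members, TFRC, SLC40A1 and SLC11A2 were looked up among these genes, and TFRC and SLC40A1 were found there. The SLC11A2 site, in the 3′ UTR at chr12:50988270-50988296 on the minus strand, has 4 upper pairs and 1 lower pair and is in 5 of 18 coding transcripts. A site with at least 4 upper pairs is found in 5.96% of protein-coding genes, and ACO1 and IREB2 each have 1 of that kind in the 3′ UTR, beyond the end of the gene in the deposited table. No such site was listed in a UTR of STEAP3, NCOA4 or FBXL5. The listing by gene left out sites that cross an exon junction and all sites on the chromosome of SLC39A14. It therefore does not show whether SLC39A14 has such a site. The deposited values are per gene, so transcripts of a gene with and without a site were counted together.

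TFRC (ENSG00000072274; chr3:196027183-196082096) encodes transferrin receptor 1, the main entry route of transferrin-bound iron. Its level was 67.7, 66.4 and 66.8 FPKM in Control and 74.0, 68.2 and 74.5 FPKM in OX-LDL. Every OX-LDL library lay above every Control library, by a narrow margin in OX-LDL replicate 2. Groups did not overlap in 37.2% of the genes tested. On the log2 scale the difference was 0.14 ± 0.06 (SE; adjusted p = 0.180, edgeR). Its 95% interval was a fold of 0.996 to 1.22. TFRC, the transcript with the 4 sites printed above, was called under none of the 15 alternative settings.

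STEAP3 (ENSG00000115107; chr2:119223831-119265652) encodes the endosomal reductase that prepares iron released from transferrin for transport. It was at 7.37, 3.11 and 3.92 FPKM in Control and at 9.46, 5.86 and 3.99 FPKM in OX-LDL. The groups overlapped, and within each of them the highest library was 2.37 times the lowest. The fitted log2 fold change was 0.45 ± 0.41 (SE; adjusted p = 0.525, edgeR), with a 95% interval from 0.694 to 2.67 times the Control level. Leaving out Control replicate 1 gave a log2 fold change of 0.91, and leaving out OX-LDL replicate 1 gave 0.07.

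SLC11A2 (ENSG00000110911; chr12:50979401-51028566) encodes the divalent metal transporter DMT1, which moves iron across the endosomal and apical membranes. Control libraries had 6.11, 6.60 and 6.22 FPKM and OX-LDL libraries had 4.20, 4.91 and 4.33 FPKM. All 3 treated libraries lay below all 3 untreated ones, with a gap wider than the range within either group. SLC11A2 was lower by a log2 fold change of -0.46 ± 0.09 (SE; adjusted p = 0.0168, edgeR). The adjusted p passed the threshold in 12 of 15 alternatives. It was 0.0656 without Control replicate 2, 0.0610 without OX-LDL replicate 1 and 0.0711 without OX-LDL replicate 3, with the log2 fold change between -0.44 and -0.41 in these fits.

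SLC39A14 (ENSG00000104635; chr8:22367249-22434129) encodes ZIP14, a carrier of iron that is not bound to transferrin and of zinc and manganese. Its libraries were uneven, with 13.7, 12.6 and 27.9 FPKM in Control and 6.64, 16.6 and 7.43 FPKM in OX-LDL. Control replicate 3 and OX-LDL replicate 2 stood apart from the other libraries of their groups, the highest library being 2.21 times the lowest in Control and 2.51 times in OX-LDL, and the groups overlapped. Its log2 fold change of -0.79 ± 0.44 (SE) was the largest in size of the 9, but the adjusted p was 0.289 (edgeR) and the 95% interval was 0.280 to 1.20 times the Control level. Leaving out Control replicate 3 gave -0.33, and leaving out OX-LDL replicate 2 gave -1.33 (adjusted p = 0.0708).

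**Figure D1:**
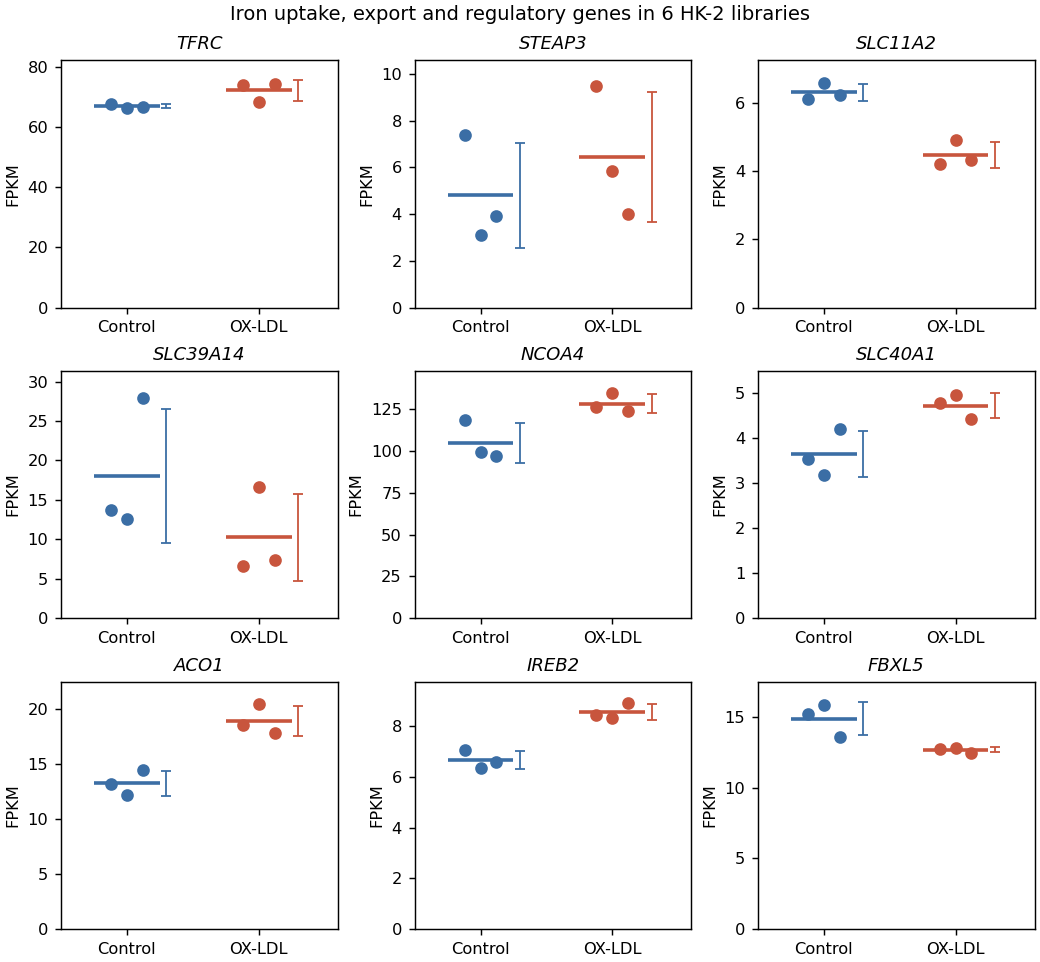
FPKM of the 9 genes in each library (points), with the group mean (line) and SD (bar beside it, n = 3 per group), on axes that start at 0. Groups do not overlap in 7 of the 9, among them ACO1 and IREB2 (higher in OX-LDL) and SLC11A2 (lower), nor in 37.2% of all genes tested. STEAP3 and SLC39A14 spread over more than 2-fold within a group.

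NCOA4 (ENSG00000266412; chr10:46005088-46030714) encodes the cargo receptor that takes ferritin to the lysosome so that its iron can be released. It had the highest level of the 9 genes, with 118, 99.1 and 96.9 FPKM in Control and 126, 135 and 124 FPKM in OX-LDL. The OX-LDL libraries were all above the Control libraries, with Control replicate 1 closest to them. With a log2 fold change of 0.32 ± 0.10 (SE) and an adjusted p of 0.0723 (edgeR; unadjusted p = 0.0136), NCOA4 was not called. It was called with DESeq2 (adjusted p = 0.0369), with upper-quartile factors (0.0479), with genes under a mean of 1 FPKM removed (0.0437) and without Control replicate 1 (0.0273), with an adjusted p of up to 0.199 in the other fits.

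SLC40A1 (ENSG00000138449; chr2:189560579-189583758) encodes ferroportin, the exporter through which iron leaves cells. It had the lowest mean of the members in Control, with 3.54, 3.18 and 4.20 FPKM, and had 4.78, 4.94 and 4.41 FPKM in OX-LDL. The groups did not overlap, although Control replicate 3 came close to OX-LDL replicate 3. SLC40A1 had a log2 fold change of 0.40 ± 0.13 (SE; adjusted p = 0.0885, unadjusted p = 0.0188, edgeR). DESeq2 was the 1 alternative that called it (adjusted p = 0.0326, against a range of up to 0.217 over the alternatives).

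Set side by side in each library, the ratio of the importer SLC11A2 to the exporter SLC40A1 was 1.73, 2.07 and 1.48 in Control and 0.880, 0.994 and 0.981 in OX-LDL. In FPKM, importer transcript thus exceeded exporter transcript in every Control library and in no OX-LDL library. Which of the 2 is higher depends on the lengths that FPKM divide by. The summed exon length is 10145 bases for SLC11A2 and 4330 for SLC40A1, and shorter transcripts in use would move the ratio. The lengths are the same in both groups, so they do not alter the difference between groups. The mean log2 ratio differed by -0.88, with p = 0.1 in an exact two-sided permutation test, the smallest that 3 libraries against 3 allow. The ratio was examined after the values of both genes had been seen.

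ACO1 (ENSG00000122729; chr9:32384603-32450836) encodes iron regulatory protein 1, which works as cytosolic aconitase when it carries an iron-sulfur cluster and binds IREs when it does not. It was at 13.2, 12.2 and 14.4 FPKM in Control and at 18.5, 20.4 and 17.8 FPKM in OX-LDL. The lowest OX-LDL library lay well above the highest Control library. It rose by a log2 fold change of 0.54 ± 0.09 (SE; adjusted p = 0.0136, edgeR), with a 95% interval of 1.25 to 1.70 times the Control level. Each of the 6 fits that left out 1 library called it, with log2 fold changes of 0.48 to 0.61 and adjusted p from 0.0235 to 0.0472.

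IREB2 (ENSG00000136381; chr15:78437431-78498209) encodes iron regulatory protein 2, which has no aconitase activity and is controlled through its degradation. It had 7.05, 6.34 and 6.59 FPKM in Control and 8.43, 8.31 and 8.90 FPKM in OX-LDL. Again no OX-LDL library reached down to the Control range. IREB2 rose by a log2 fold change of 0.39 ± 0.08 (SE; adjusted p = 0.0205, edgeR). It was close to the threshold, and the adjusted p was 0.0739 without Control replicate 2, 0.0589 without Control replicate 3, 0.0572 without OX-LDL replicate 1 and 0.0783 without OX-LDL replicate 3. The direction was the same in all 15 alternatives, with log2 fold changes from 0.32 to 0.44.

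The ratio of ACO1 to IREB2 transcript within a library was 1.87, 1.92 and 2.19 in Control and 2.20, 2.45 and 2.00 in OX-LDL. The groups overlapped, and the mean log2 ratio differed by 0.15 (p = 0.2 in an exact two-sided permutation test). With 3 libraries against 3 this test cannot go below 0.1, so it does not show that the ratio was the same.

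FBXL5 (ENSG00000118564; chr4:15604539-15681619) encodes the iron-binding subunit of the ubiquitin ligase that marks IREB2 protein for degradation when iron is plentiful. It was at 15.2, 15.9 and 13.6 FPKM in Control and at 12.8, 12.9 and 12.5 FPKM in OX-LDL. All OX-LDL values were lower and lay closer together than the Control values. FBXL5 had a log2 fold change of -0.20 ± 0.08 (SE; adjusted p = 0.140, unadjusted p = 0.0390, edgeR), and no alternative called it.

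**Figure D2:**
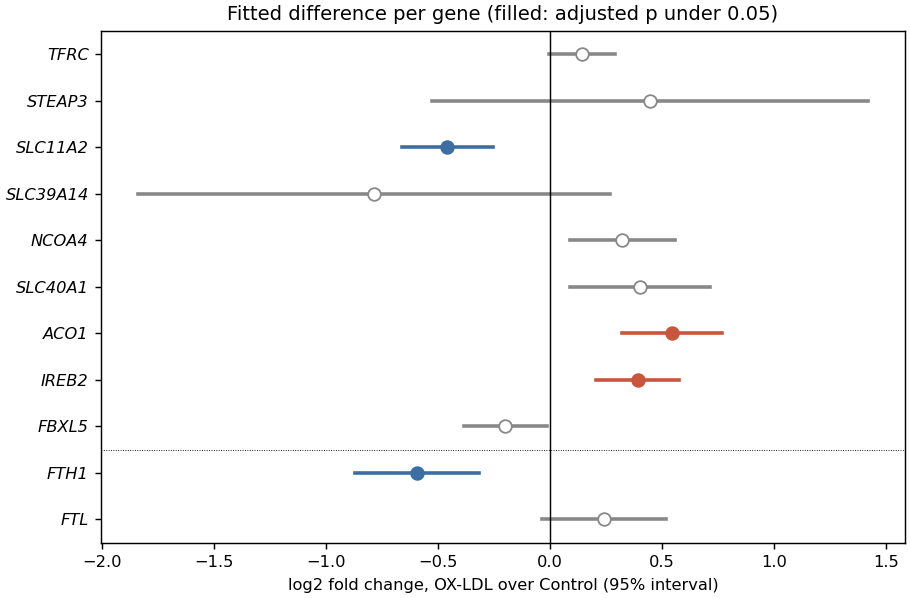
Log2 fold change of OX-LDL over Control (x axis) with its 95% interval from edgeR for the 9 genes and, below the dotted line, for the ferritin genes FTH1 and FTL. Filled points have an adjusted p under 0.05: ACO1 (0.54) and IREB2 (0.39) lie to the right of 0, and SLC11A2 (-0.46) and FTH1 (-0.59) to the left.

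Over the 9 genes, 6 had a positive and 3 a negative log2 fold change, and the median was 0.32, beside -0.0043 over all genes tested. Groups did not overlap in 7 of the 9, with OX-LDL above in 5 (16.8% of all genes tested) and below in 2 (20.5% of all genes tested). The 2 genes with overlapping groups were STEAP3 and SLC39A14, which also had the largest standard errors. An unadjusted p under 0.05 was reached by 6 of the 9, against 30.4% of all genes tested.

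**Figure D3:**
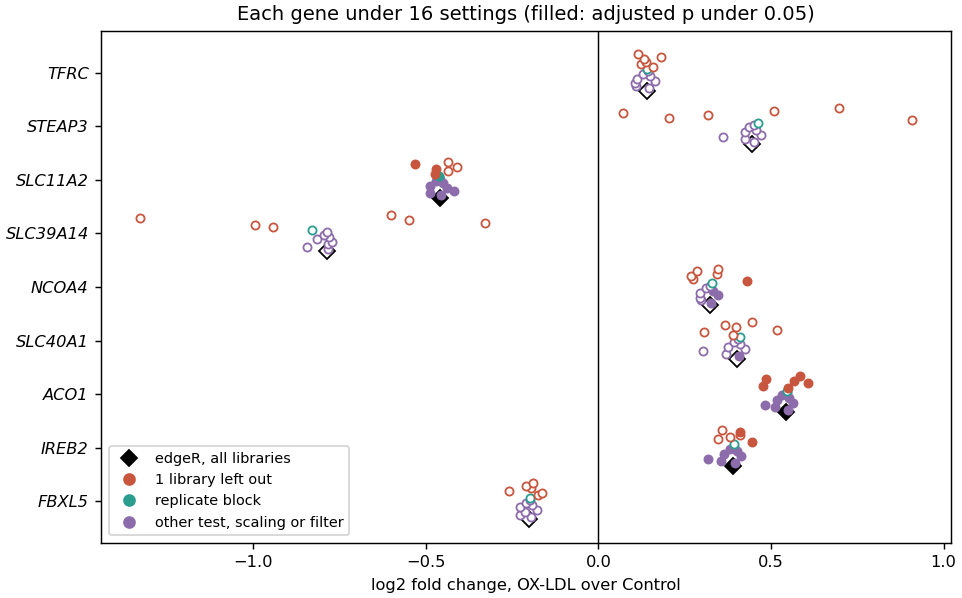
Log2 fold change of each gene under edgeR with all libraries (diamond) and under 15 alternatives, filled where the adjusted p was under 0.05. ACO1 stays between 0.48 and 0.61 and is filled in all but the fit with a replicate block, while SLC39A14 moves between -1.33 and -0.33 and STEAP3 between 0.07 and 0.91 when 1 library is left out.

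In levels, NCOA4 and TFRC stood apart from the rest. In Control the order of mean FPKM was NCOA4 (105 ± 11.7, SD, n = 3), TFRC (67.0 ± 0.670), SLC39A14 (18.1 ± 8.52), FBXL5 (14.9 ± 1.15), ACO1 (13.3 ± 1.13), IREB2 (6.66 ± 0.360), SLC11A2 (6.31 ± 0.253), STEAP3 (4.80 ± 2.26) and SLC40A1 (3.64 ± 0.518). Of the 8 pairs of neighbours in this order, 3 had library values that did not overlap: NCOA4 with TFRC, TFRC with SLC39A14, and ACO1 with IREB2. In OX-LDL, ACO1 (18.9 ± 1.34) came next after TFRC and was above FBXL5 (12.7 ± 0.182) in every library, and SLC11A2 (4.48 ± 0.380) was last. The middle of the order, from FBXL5 through SLC39A14 (10.2 ± 5.55), IREB2 (8.55 ± 0.314), STEAP3 (6.44 ± 2.78) and SLC40A1 (4.71 ± 0.272), overlapped from each gene to the next. FPKM were scaled to the summed exon length of a gene's transcripts, which lowers the level of a gene with many rarely used exons. Gene positions in parentheses above are those of the deposited table (GRCh38). TFRC, STEAP3, SLC39A14 and IREB2 overlap annotated genes on the other strand, and SLC11A2 overlaps a small RNA gene on its own strand, so reads there could belong to either gene.

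The members also share annotation in the authors' table. The KEGG pathway ferroptosis, a form of cell death that depends on iron, lists 6 of the 9 members among its 40 genes in the table, all but ACO1, IREB2 and FBXL5. The GO term cellular iron ion homeostasis lists 7 of the 9 among 59 genes, all but STEAP3 and SLC39A14.

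Ferritin, the store that these genes fill and empty, had transcripts far above all members. FTH1, the heavy chain with the ferroxidase site, was at 2666, 3047 and 3134 FPKM in Control and 1730, 2238 and 1765 FPKM in OX-LDL. No OX-LDL library reached the Control range, and FTH1 fell, with a log2 fold change of -0.59 ± 0.12 (SE; adjusted p = 0.0196, edgeR). FTL, the light chain, was at 1182, 1429 and 1604 FPKM in Control and 1570, 1763 and 1535 FPKM in OX-LDL. Its groups overlapped, and its log2 fold change was 0.24 ± 0.12 (SE; adjusted p = 0.218, edgeR). The adjusted p of FTH1 was 0.0685 without Control replicate 2, 0.0589 without Control replicate 3, 0.0687 without OX-LDL replicate 1 and 0.0746 without OX-LDL replicate 3. FTH1 overlaps BEST1 on the other strand and has 25 annotated pseudogenes, whose summed counts were 1.64 to 2.24% of its own. Reads shared with these genes could be counted for either.

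The ratio of FTH1 to FTL was 2.26, 2.13 and 1.95 in Control and 1.10, 1.27 and 1.15 in OX-LDL. The mean ratio of TFRC to FTH1 was 0.0228 ± 0.00223 in Control and 0.0385 ± 0.00694 in OX-LDL (SD, n = 3 per group), and that of FTH1 to its lysosomal receptor NCOA4 was 28.5 ± 5.25 in Control and 14.9 ± 1.54 in OX-LDL. None of these 3 ratios overlapped between the groups. Each had p = 0.1 in an exact two-sided permutation test, the smallest possible here, and 6 ratios were computed in all. The one not given above, SLC39A14 to SLC11A2, overlapped between the groups (p = 0.5, same exact test). Adjusted over the 6 ratios by the Benjamini-Hochberg method, the 4 ratios at 0.1 had a value of 0.15.

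**Figure D4:**
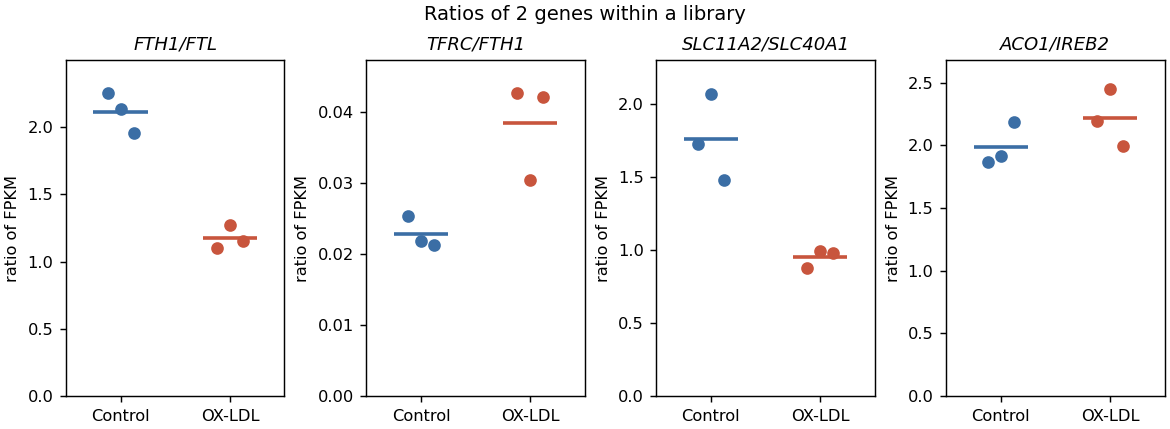
Ratio of the FPKM of 2 genes within each library (points) with the group mean (line), on axes that start at 0. The FTH1 to FTL ratio lies between 1.95 and 2.26 in Control and between 1.10 and 1.27 in OX-LDL, and ACO1 to IREB2 overlaps between the groups.

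Beyond the members, 76 other genes were listed for iron or heme handling or for an IRE, and 64 could be tested. Of these, 15 were called (23.4%, beside 15.3% of all genes), of which 6 rose and 9 fell. The 15 include EPAS1 and CDC42BPA, which were listed for an IRE alone. The median log2 fold change of the 64 was -0.11. The number called was 7 without Control replicate 2, 6 without OX-LDL replicate 1 and 5 without OX-LDL replicate 3. The 12 that could not be tested, under a mean of 0.1 FPKM, include transferrin (TF), hepcidin (HAMP) and mitochondrial ferritin (FTMT, at 0 counts in every library). Of the 7 genes of export oxidases and the hepcidin axis, 1 could be tested and was not called.

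Among 5 partners that act on the iron regulatory proteins, 3 were called (60%, beside 15.3% of all genes tested). SKP1 and CUL1, the adaptor and scaffold of the ligase that FBXL5 belongs to, rose by 0.43 ± 0.07 and 0.36 ± 0.09 (SE) on the log2 scale. CIAO2A is a cytosolic iron-sulfur assembly protein that binds and stabilizes IREB2. Its transcript was at 22.0 ± 1.18 FPKM in Control and fell to 14.6 ± 1.07 FPKM in OX-LDL (SD, n = 3). The log2 fold change was -0.55 (adjusted p = 0.0125, edgeR). RBX1 and HERC2 were not called. The adjusted p was 0.0511 for SKP1 without OX-LDL replicate 1 and 0.0533 for CIAO2A without OX-LDL replicate 3. CUL1 was called in 1 of the 6 fits that left out a library, that without OX-LDL replicate 2, and had an adjusted p of 0.0603 to 0.118 in the others.

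In uptake and delivery, 2 of 9 tested accessory genes fell (22.2%) and none rose. Over all genes tested, 7.42% were called lower and 7.91% higher. STEAP1, a relative of STEAP3, went from 7.62 ± 0.600 to 4.11 ± 0.587 FPKM (log2 fold change -0.86), and SLC46A1, a carrier of folate and heme, from 3.12 ± 0.342 to 1.81 ± 0.162 FPKM (log2 fold change -0.75; SD, n = 3 per group). PCBP2, an iron chaperone, fell by 0.34 on the log2 scale. With FTH1 it was 1 of 2 called among 6 storage and delivery genes (33.3%, beside 15.3% of all genes tested). The adjusted p of STEAP1 was 0.0578 without Control replicate 2, 0.0543 without OX-LDL replicate 1 and 0.0544 without OX-LDL replicate 3. That of SLC46A1 was 0.0505 without OX-LDL replicate 3, and that of PCBP2 was 0.0646 and 0.0559 without Control replicates 2 and 3, and 0.0703 and 0.0753 without OX-LDL replicates 1 and 3. The reductase CYBRD1, with a log2 fold change of 0.18 and an adjusted p of 0.211 in edgeR's test, was not called.

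Heme transport held the largest differences of the heme lists. SLC48A1, which moves heme from the lysosome to the cytosol, was at 27.7 ± 2.30 FPKM in Control and at 10.7 ± 2.47 FPKM in OX-LDL (SD, n = 3), and its log2 fold change was -1.35 ± 0.16 (SE; adjusted p = 0.00478, edgeR). FLVCR1, first described as a heme exporter, rose from 3.61 ± 0.0983 to 6.09 ± 0.357 FPKM (log2 fold change 0.78), and BLVRA, which reduces the biliverdin left after heme is broken down, rose from 11.9 ± 0.663 to 18.5 ± 0.817 FPKM (log2 fold change 0.66). These 3 were the genes called of 8 (37.5%, beside 15.3% of all genes tested). Each of the 6 fits that left out a library called all 3. SLC48A1 overlaps an annotated gene on its own strand and RAPGEF3 on the other, and BLVRA overlaps one on its own strand. Reads there could belong to either gene. The same holds for PCBP2, SLC46A1, STEAP1, SKP1, CUL1, GLRX5, UROS and CDC42BPA, which also overlap annotated genes. HMOX1, which opens the heme ring and frees its iron, had a log2 fold change of -0.16 and an adjusted p of 0.491. In heme synthesis, all 8 tested genes had a negative log2 fold change, as had 9822 of the 19510 genes tested. Some were small, such as CPOX at -0.03, and 2 of the 8 had an unadjusted p under 0.05 in edgeR's test. UROS (-0.30) was the 1 called (12.5%). Of 23 genes of iron-sulfur cluster assembly, GLRX5 (0.46) was the 1 called (4.35%). UROS lost its call in 5 of the 6 fits that left out a library, all but that without OX-LDL replicate 2 (adjusted p 0.0599 to 0.117), and GLRX5 in 5, all but that without Control replicate 3 (0.0592 to 0.108).

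Of the 6 other transcripts known to carry an IRE that could be tested, 4 were called, 3 lower and 1 higher. Over all genes tested, 7.42% were called lower and 7.91% higher. EPAS1, the hypoxia-inducible factor HIF-2α, was at 117 ± 13.9 FPKM in Control and at 49.0 ± 2.27 FPKM in OX-LDL (SD, n = 3). Its log2 fold change was -1.22 ± 0.09 (SE; adjusted p = 0.00144, edgeR), and each of the 15 alternatives called it. CDC42BPA, a kinase of the cytoskeleton, fell by 0.47 and FTH1 by 0.59 on the log2 scale. The adjusted p of CDC42BPA was 0.0637 to 0.0928 in 5 of the 6 fits that left out a library, all but that without Control replicate 3. Leaving aside sites that cross an exon junction, which were not listed, the search found none with at least 4 upper pairs in a UTR of EPAS1 or CDC42BPA. Of the genes with a printed 5′ UTR site, FTH1 fell and FTL and SLC40A1 were not called, with overlapping groups for FTL and higher values in every OX-LDL library for SLC40A1. Of those with a printed 3′ UTR site, SLC11A2 fell and TFRC was not called.

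**Figure D5:**
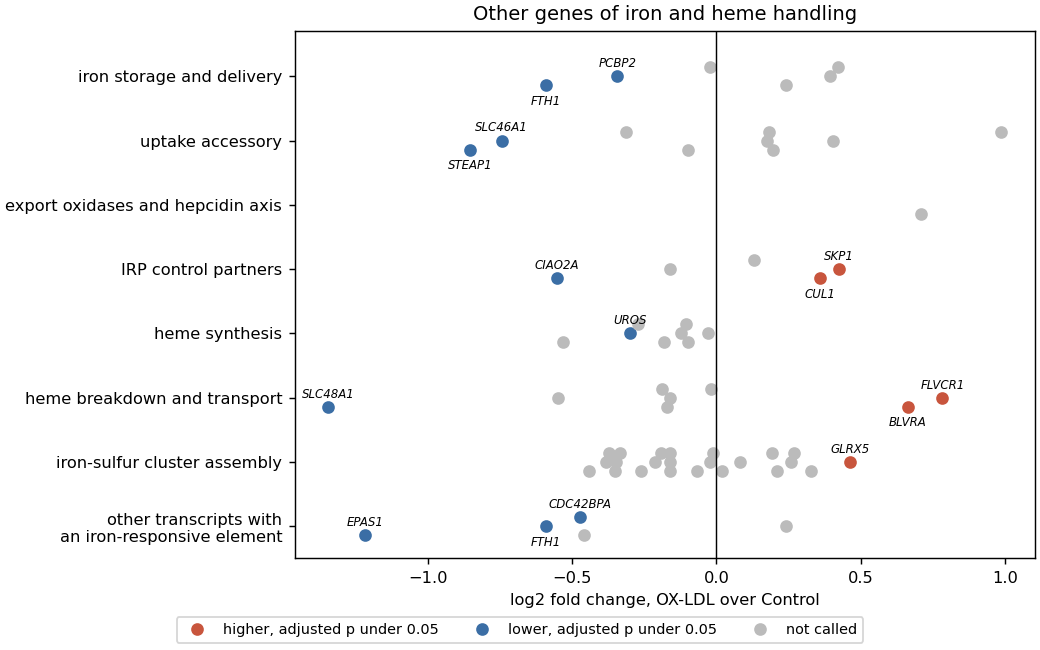
Log2 fold change of OX-LDL over Control (x axis) for the other genes listed for iron or heme handling or for an IRE. Each row is 1 list, with 1 point per gene shown, named where the adjusted p was under 0.05. SLC48A1 (-1.35) and EPAS1 (-1.22) lie farthest to the left and FLVCR1 (0.78) is the highest of the genes called.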

How the data were processed

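Poly(A) RNA of HK-2 cells was sequenced as read pairs. The authors deposited estimated counts, not scaled for library size, and FPKM, which the authors scaled per kilobase and for library size (a count of 0 is listed as 0.0001 FPKM). The submitters' processing notes list cutadapt 1.9, HISAT2 2.0.4, StringTie 1.3.4d, edgeR, DESeq2 and GRCh38. The annotation and strand setting of the counting are not given in the sources used here. The ratio of count to FPKM of a gene was constant over libraries (within 1% for 98.5% of the 11754 genes with 200 counts in each library). The lengths it implied were proportional to the summed exon length in GENCODE release 29 (within 5% for 92.0% of genes).

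Genes with a mean under 0.1 FPKM were left out, and the counts of the others were fitted with edgeR 4.0.16 (R 4.3.3; TMM factors, glmQLFit, glmQLFTest, group as the only term), with Benjamini-Hochberg adjustment over the 19510 genes tested. A standard error is the size of the log2 fold change over the root of its F statistic. All 9 members passed the filter. The fits were tested on simulated counts. Alternatives were DESeq2 1.42.0, limma 3.58.1 on log2(FPKM + 0.1) and log2(FPKM + 1), upper-quartile or no normalization factors, a minimum of 1 FPKM or none, counts divided by 4, a replicate block and leaving out each library. The members and lists were chosen with earlier results of these data known. All members, FTH1 and FTL are named, with at most 4 called genes of each other list, less 1 called gene that is counted but not reported here by name or plotted; CYBRD1, HMOX1, RBX1, HERC2, TF, HAMP and FTMT were chosen with their values in view. At 4 counts per read pair the libraries hold 15640337 to 19199402 read pairs. Without molecular identifiers, counts include PCR duplicates.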

Additional observations from a re-analysis of the deposited data

How the results depend on the processing

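Each library left out in turn brought the number of genes called from 2991 to between 1161 and 2943, the members called from 3 to between 1 and 4 (1 to 3 higher, 0 to 1 lower) and the other iron genes called from 15 to between 5 and 14. The log2 fold change then lay between -0.53 and -0.41 for SLC11A2, 0.27 and 0.43 for NCOA4 and 0.35 and 0.44 for IREB2. DESeq2 called 4430 genes and 5 members, 4 of them higher, adding NCOA4 (log2 fold change 0.33) and SLC40A1 (0.41). NCOA4 was also called with upper-quartile factors (0.35) and with a minimum of 1 FPKM (0.33). No member changed direction under any of the 15 alternatives. The same-numbered libraries of the groups did not deviate together (correlations of -0.041, -0.0031 and 0.036), so the numbers were not taken to pair them. With the replicate block, 1636 genes, 8 other iron genes and 1 member were called, with 0 members higher: ACO1 (0.55, adjusted p = 0.0550) and IREB2 (0.39, adjusted p = 0.0595) were not called and SLC11A2 was (adjusted p = 0.0403). The cause of these differences was not tested. The order of member levels was the same after rescaling to TPM, with 3 of 8 neighbours apart in each group. For STEAP3 and SLC39A14, the spread between libraries of a group limited what the test could separate.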
